A study of Homo sapiens and Mus musculus with 27 samples.

Results

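Expression of 44 genes that act in G2 and in mitosis was followed in HCC1937 cells, MDA-MB-231 cells and 4T1 tumours. The genes form a list of known mitotic regulators and machinery, matched by symbol and drawn up with earlier results of these data known. All 44 were found among the 78932 features of each human count table and, as mouse orthologs, among the 25239 genes of the 4T1 table. They fall into 11 roles: chromosome structure, cyclins with CDK1 and its phosphatases, mitotic kinases, the spindle checkpoint, anaphase control, the kinetochore and centromere, the chromosomal passenger complex, kinesins, spindle assembly proteins, cytokinesis and transcription factors.

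A cell enters mitosis when cyclin B and its kinase CDK1 are activated. The spindle checkpoint then holds the cell until every kinetochore is attached to microtubules, and the ubiquitin ligase APC/C with its activator CDC20 starts anaphase. Transcripts of these genes rise together in G2, driven by the B-MYB-MuvB complex and FOXM1, fall in G1 under repression by the DREAM complex, and serve as markers of proliferation in breast tumours. In a bulk library, fewer cells in G2 and M phase and less RNA in each such cell cannot be told apart.

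The study used 3 models, each with 3 groups of 3 libraries. HCC1937, a human breast cancer line, was given 10 µM TM, 10 µM AMD3100 or vehicle. TM is left as the labels write it, and AMD3100 is an antagonist of the chemokine receptor CXCR4. MDA-MB-231, a mesenchymal-like triple-negative human breast cancer line, was given 10 nM bortezomib with 10 µM TM, 10 nM bortezomib with 10 µM AMD3100, or vehicle. Bortezomib is a proteasome inhibitor. Mouse 4T1 mammary carcinoma was grown in Balb/c mice, which have a working immune system. The mice received bortezomib at 1 mg/kg every 4 days with TM at 0.05 mg/ml in the drinking water, the same bortezomib with AMD3100 at 5 mg/kg every 2 days, or vehicle. No group used here received bortezomib alone, so bortezomib and its partner cannot be told apart in MDA-MB-231 and 4T1. The exposure time of the cells, the age of the mice and the implantation site are not given in the sources used here. The labels call the libraries biological replicates but do not say whether they came from separate cultures or animals, so p-values measure the spread between these libraries.

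Libraries held 35981504 to 43973262 counts in HCC1937, 40389469 to 50283398 in MDA-MB-231 and 38407536 to 50735374 in 4T1. One HCC1937 library stood apart. AMD3100 replicate 1 gave 19.9% of its counts to mitochondrial genes, against 10.5 to 11.6% in the other 8, and had a count for 20639 genes, against 29335 to 31770. It was left out of the HCC1937 fits, and values with it are given beside the results it touches. Vehicle replicate 1 of 4T1 carries labels of another species and line in some fields and was kept by its title and column name. In MDA-MB-231 the replicates of each group drifted apart with the GC content of the transcripts. The genes in the lowest of 4 equal classes of GC deviated from their group by a median log2 of -0.25, -0.14 and 0.40 in bortezomib+TM replicates 1 to 3, by 0.16, 0.16 and -0.32 with bortezomib+AMD3100, and by 0.097, -0.30 and 0.20 with vehicle. The same values in HCC1937 lay between -0.043 and 0.056. Epithelial markers (EPCAM, CDH1, KRT8, KRT18, KRT5) summed to 1872 to 1917 CPM with TM, 1918 to 2456 CPM with AMD3100 and 2424 to 2524 CPM with vehicle in HCC1937, and the part of marker shifts in the results was not tested. Of these, EPCAM averaged 0.110, 0.267 and 0.0564 CPM and CDH1 1.57, 0.707 and 0.655 CPM with TM, AMD3100 and vehicle. KRT5 was at or near 0 in every group, so KRT8 and KRT18 made up nearly all of the sums. Mesenchymal markers (VIM, ZEB1, CDH2, SPARC) summed to 302 to 311 CPM with TM, 391 to 849 CPM with AMD3100 and 390.4 to 403 CPM with vehicle in HCC1937. Both marker lists were thus lower in every TM library than in every vehicle library. The AMD3100 sums and averages of both lists include replicate 1, the library that stood apart, so their ranges do not describe AMD3100 alone. In MDA-MB-231 the epithelial markers summed to 493 to 689 CPM with bortezomib+TM, 522 to 598 CPM with bortezomib+AMD3100 and 411 to 533 CPM with vehicle. The mesenchymal markers summed to 924 to 933 CPM with bortezomib+TM, 969.9 to 1023 CPM with bortezomib+AMD3100 and 957 to 1004 CPM with vehicle in MDA-MB-231. CDH2 was near 0 in them, as were CDH1 and KRT5.

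**Figure D1:**
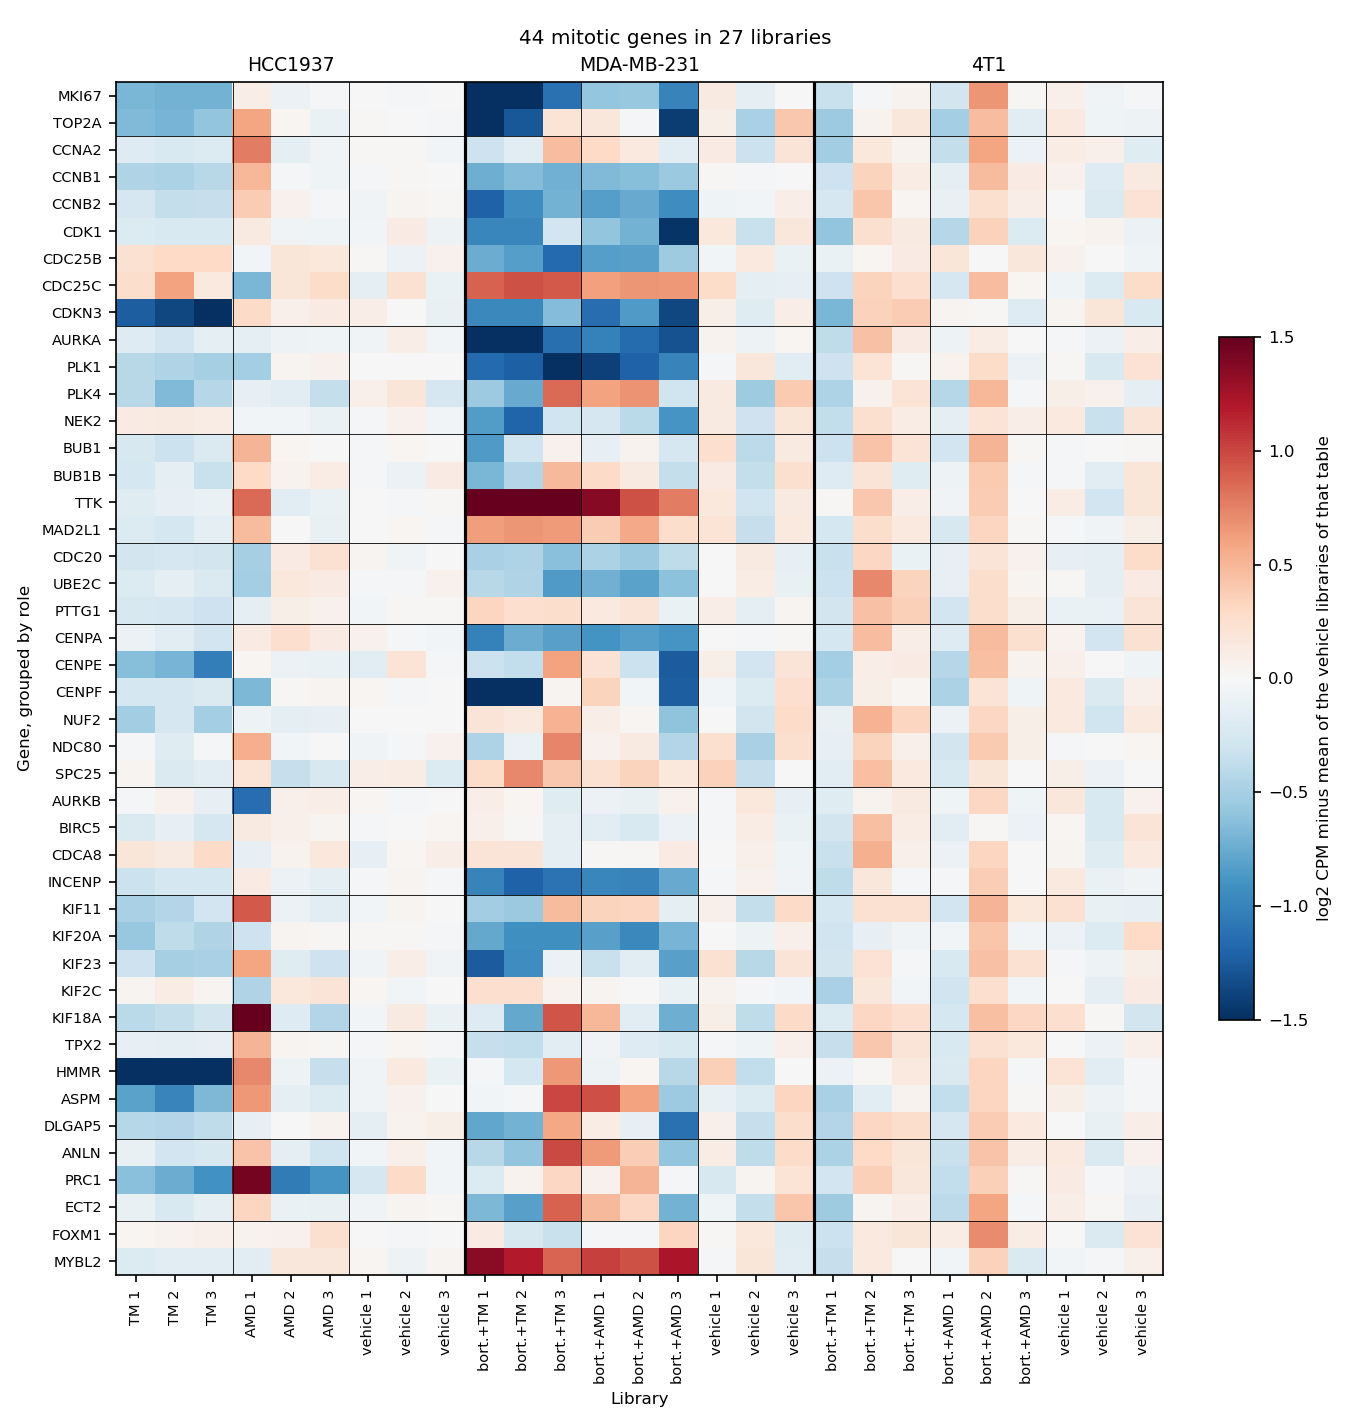
Each cell is the log2 CPM of a gene in a library minus the mean of the vehicle libraries of the same table, with libraries across (bort., bortezomib; AMD, AMD3100; numbers, replicates) and the 44 genes down, grouped by role; colours end at -1.5 and 1.5. The 3 HCC1937 TM libraries are alike, with 37 or 38 of 44 genes below the vehicle mean in each. The 3 bortezomib+TM libraries of MDA-MB-231 differ, with 32, 32 and 20 below it. In some 4T1 libraries, and not in others, nearly the whole set lies on 1 side of the vehicle mean. In bortezomib+TM replicate 1 of 4T1, 43 of 44 genes lie below it.

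In HCC1937, most of the mitotic genes were lower with TM, a few of them deeply. Of the 44 genes, 33 were called lower and 3 higher with TM than with vehicle at an adjusted p below 0.05 (edgeR's quasi-likelihood test, Benjamini-Hochberg adjustment over 20398 genes). Of all genes tested, 21.4% were called lower and 19.4% higher. The median log2 change of the 44 genes was -0.25, against 0.0026 over all genes tested. Log2 changes are given ± SE. All 3 TM libraries lay below all 3 vehicle libraries for 35 of the 44 genes and above them for 5, against 25.4% and 24.7% of all genes. The largest fall was that of HMMR, followed by CDKN3 and ASPM, while the 3 genes called higher were CDC25B, CDCA8 and NEK2. The fit that held only the TM and vehicle libraries also gave 33 lower and 3 higher. With AMD3100 replicate 1 in the fit, which shares its estimate of spread with all groups, 8 genes were called lower (MKI67, TOP2A, CDKN3, CENPE, NUF2, KIF20A, HMMR and DLGAP5) and 0 higher, where 4.11% and 2.96% of all genes were called, and the median was -0.25. After correction for GC content and length, 28 genes were lower and 4 higher, with a median of -0.21.

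**Figure D2:**
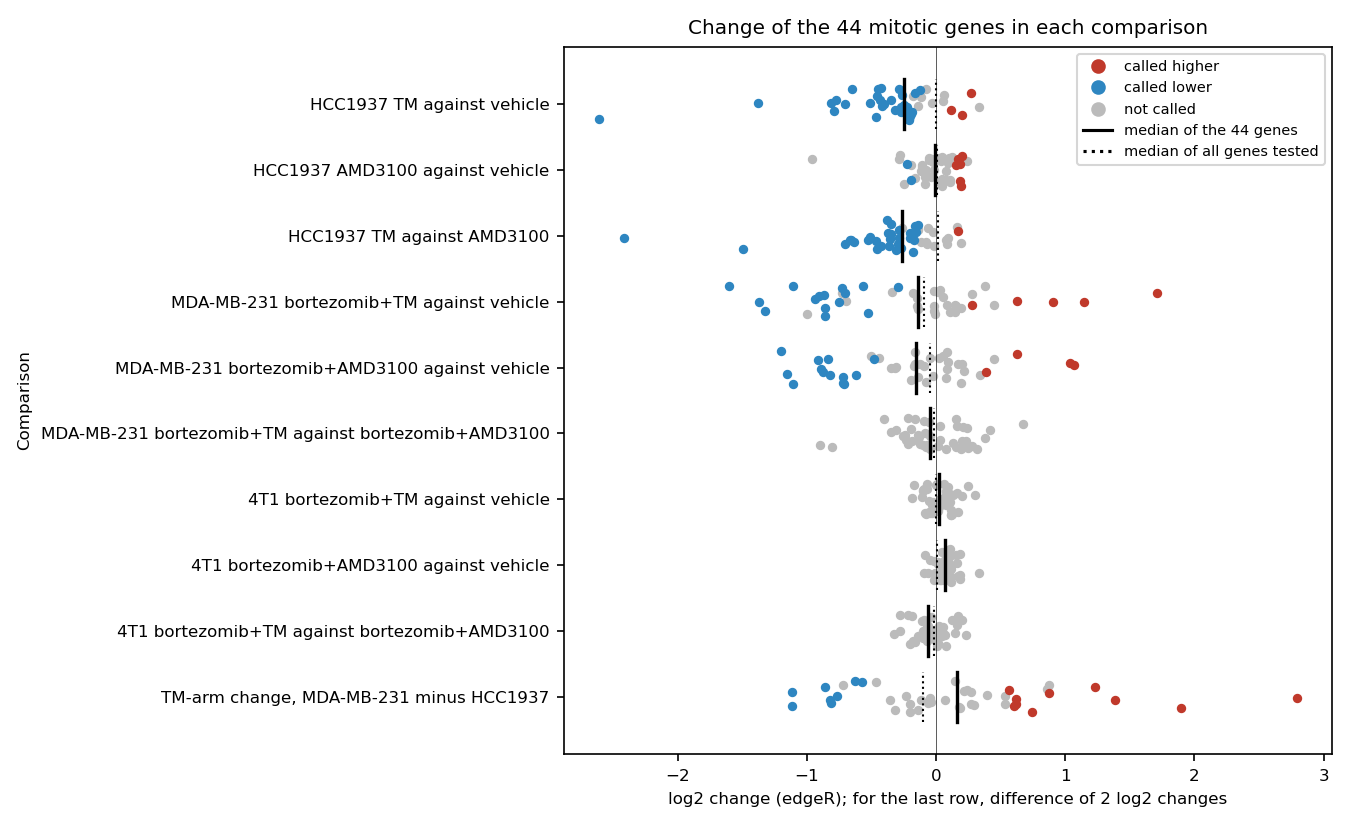
Points are the log2 changes of the 44 mitotic genes in each of 9 comparisons and, in the last row, the difference between the 2 lines; red and blue mark genes called higher and lower, the solid bar is the median of the 44 genes and the dotted bar the median of all genes tested. The HCC1937 TM points lie mostly left of zero with HMMR far to the left, the MDA-MB-231 points spread to both sides, and no 4T1 point is called.

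Proteins of spindle assembly held the deepest change, with all 4 lower. HMMR, which codes for a microtubule-bound protein of the spindle pole and for a hyaluronan receptor (chr5:163460203-163491945, plus strand in GENCODE 29 on GRCh38), had 5.21, 6.36 and 5.80 CPM in the 3 TM libraries, against 34.0, 38.8 and 32.8 CPM with vehicle. All 3 TM libraries lay far below all 3 vehicle libraries, and the fitted TM level was 0.164 of the vehicle level (log2 change -2.61 ± 0.098, adjusted p = 9.65e-18). ASPM, which focuses spindle poles and orients the spindle, had 41.4, 36.5 and 45.3 CPM with TM, against 69.8, 75.4 and 71.9 CPM with vehicle, and the groups did not overlap (log2 change -0.82 ± 0.065, adjusted p = 4.5e-11). DLGAP5, which stabilises kinetochore fibres, fell by 0.42 on the log2 scale (SE 0.066, adjusted p = 8.32e-06). TPX2, the activator of Aurora A on the spindle, had a log2 change of -0.12 ± 0.04, adjusted p = 0.0153.

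Chromosome structure genes fell together. MKI67, whose product Ki-67 coats mitotic chromosomes and is the standard proliferation marker, had 82.8, 81.8 and 81.4 CPM with TM, against 134, 132 and 134 CPM with vehicle (log2 change -0.70 ± 0.045, adjusted p = 7.17e-13). TOP2A, the topoisomerase that untangles sister chromatids, had 127, 124 and 133 CPM with TM, against 204, 201 and 198 CPM with vehicle (log2 change -0.65 ± 0.045, adjusted p = 2.73e-12). For both genes the TM libraries lay close together and below every vehicle library.

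Among the cyclins, CDK1 and its phosphatases, 5 of 7 fell and 1 rose. CDKN3, a phosphatase that acts on CDK kinases, had 16.7, 15.3 and 13.3 CPM with TM, against 42.1, 39.5 and 36.4 CPM with vehicle (log2 change -1.38 ± 0.081, adjusted p = 1.03e-13). CCNB1, the main mitotic cyclin, had 220.3, 217 and 227 CPM with TM, against 299, 306 and 301 CPM with vehicle (log2 change -0.45 ± 0.038, adjusted p = 2.14e-10). The shift of CDK1, its kinase, was small next to these. CDK1 had 78.2, 77.1 and 76.9 CPM with TM, against 87.5, 97.7 and 85.3 CPM with vehicle (log2 change -0.22 ± 0.053, adjusted p = 0.00119), and the call was lost after correction for GC content and length (log2 change -0.055). CCNB2 and CCNA2 had log2 changes of -0.32 ± 0.053 and -0.21 ± 0.052. Of the phosphatases that activate CDK1, CDC25B was called higher. It had 162, 169.6 and 169 CPM with TM, against 139.9, 130.4 and 145 CPM with vehicle, with no overlap (log2 change 0.27 ± 0.046, adjusted p = 2.05e-05). CDC25C had 7.58, 9.56 and 6.96 CPM with TM, against 5.76, 7.37 and 5.91 CPM with vehicle, with overlapping groups, and was not called (log2 change 0.34 ± 0.14, adjusted p = 0.0565).

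Of the 4 mitotic kinases, 3 fell. PLK1, which drives mitotic entry and centrosome maturation, had 135, 131 and 128 CPM with TM, against 179, 181 and 181 CPM with vehicle (log2 change -0.45 ± 0.042, adjusted p = 9.48e-10). PLK4, the kinase of centriole duplication, and AURKA, the spindle pole kinase, had log2 changes of -0.51 ± 0.11 and -0.21 ± 0.05. NEK2, the kinase that separates centrosomes, had 103, 104 and 102 CPM with TM, against 92.4, 99.0 and 91.9 CPM with vehicle (log2 change 0.12 ± 0.048, adjusted p = 0.0462). The call of NEK2 was lost when any library other than vehicle replicate 2 was left out.

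The spindle checkpoint and anaphase genes shifted by less. BUB1, the checkpoint kinase at kinetochores, had 82.7, 78.5 and 84.1 CPM with TM, against 96.0, 100.2 and 97.8 CPM with vehicle (log2 change -0.26 ± 0.048, adjusted p = 6.52e-05). BUB1B and MAD2L1, parts of the complex that inhibits APC/C, had log2 changes of -0.25 ± 0.072 and -0.20 ± 0.052, and BUB1B lost its call without vehicle replicate 3. TTK, the kinase that starts checkpoint signalling, had a log2 change of -0.14 ± 0.057, adjusted p = 0.059. The genes of anaphase control were all called lower. CDC20, UBE2C (the ubiquitin-conjugating enzyme of APC/C) and PTTG1 (securin, the inhibitor of separase) had log2 changes of -0.27 ± 0.042, -0.19 ± 0.045 and -0.27 ± 0.042. Reads of PTTG1 may be shared with its near-identical copies.

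At the kinetochore, 3 of 6 genes fell. CENPE, the motor that carries chromosomes to the spindle equator, had 13.6, 13.2 and 10.4 CPM with TM, against 18.8, 24.5 and 20.8 CPM with vehicle (log2 change -0.79 ± 0.1, adjusted p = 5.2e-07). NUF2 and CENPF had log2 changes of -0.42 ± 0.073 and -0.25 ± 0.039. NUF2 is a subunit of the NDC80 complex, which binds microtubules, and the other subunits listed did not follow it past the threshold. NDC80 and SPC25 had log2 changes of -0.077 ± 0.066 and -0.12 ± 0.1, with 95% intervals of -0.21 to 0.059 and -0.33 to 0.091. CENPA, the histone of the centromere, had a log2 change of -0.18 ± 0.074, adjusted p = 0.0579.

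The chromosomal passenger complex split. INCENP, its scaffold, and BIRC5 (survivin) fell, with log2 changes of -0.29 ± 0.046 and -0.19 ± 0.041. CDCA8 (borealin) had 65.9, 63.7 and 70.7 CPM with TM, against 53.1, 59.0 and 61.8 CPM with vehicle (log2 change 0.20 ± 0.061, adjusted p = 0.00818), a call lost without TM replicate 3 or without vehicle replicate 1. AURKB, the kinase of the complex, had a log2 change of -0.029 with a 95% interval of -0.13 to 0.071.

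The kinesins KIF20A, KIF23, KIF11 and KIF18A fell, with log2 changes of -0.46 ± 0.052, -0.43 ± 0.06, -0.40 ± 0.058 and -0.35 ± 0.085. KIF11 pushes the spindle poles apart, and KIF23 and KIF20A act in the central spindle. KIF2C, a depolymerase at centromeres, was not called (log2 change 0.06 ± 0.045, adjusted p = 0.311). All 3 cytokinesis genes were called lower. ANLN, which crosslinks the contractile ring, and ECT2, which activates RhoA there, had log2 changes of -0.21 ± 0.053 and -0.16 ± 0.049. PRC1, the bundler of central spindle microtubules, had 1.12, 1.03 and 0.916 CPM with TM, against 1.44, 2.10 and 1.67 CPM with vehicle (log2 change -0.77 ± 0.29, adjusted p = 0.0321). That value is uncertain, since 57.6% of its exon bases are shared with another annotated gene on the same strand, and the call was lost when TM replicate 2, TM replicate 3, vehicle replicate 2 or vehicle replicate 3 was left out.

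The transcription factors of the programme moved little. MYBL2 (B-MYB) had a log2 change of -0.18 ± 0.039, adjusted p = 0.000375. FOXM1 had 119, 121 and 122 CPM with TM, against 117, 115 and 117 CPM with vehicle. All 3 TM libraries of FOXM1 were above the vehicle libraries, but the log2 change of 0.053 ± 0.048 did not pass the test (adjusted p = 0.413).

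**Figure D3:**
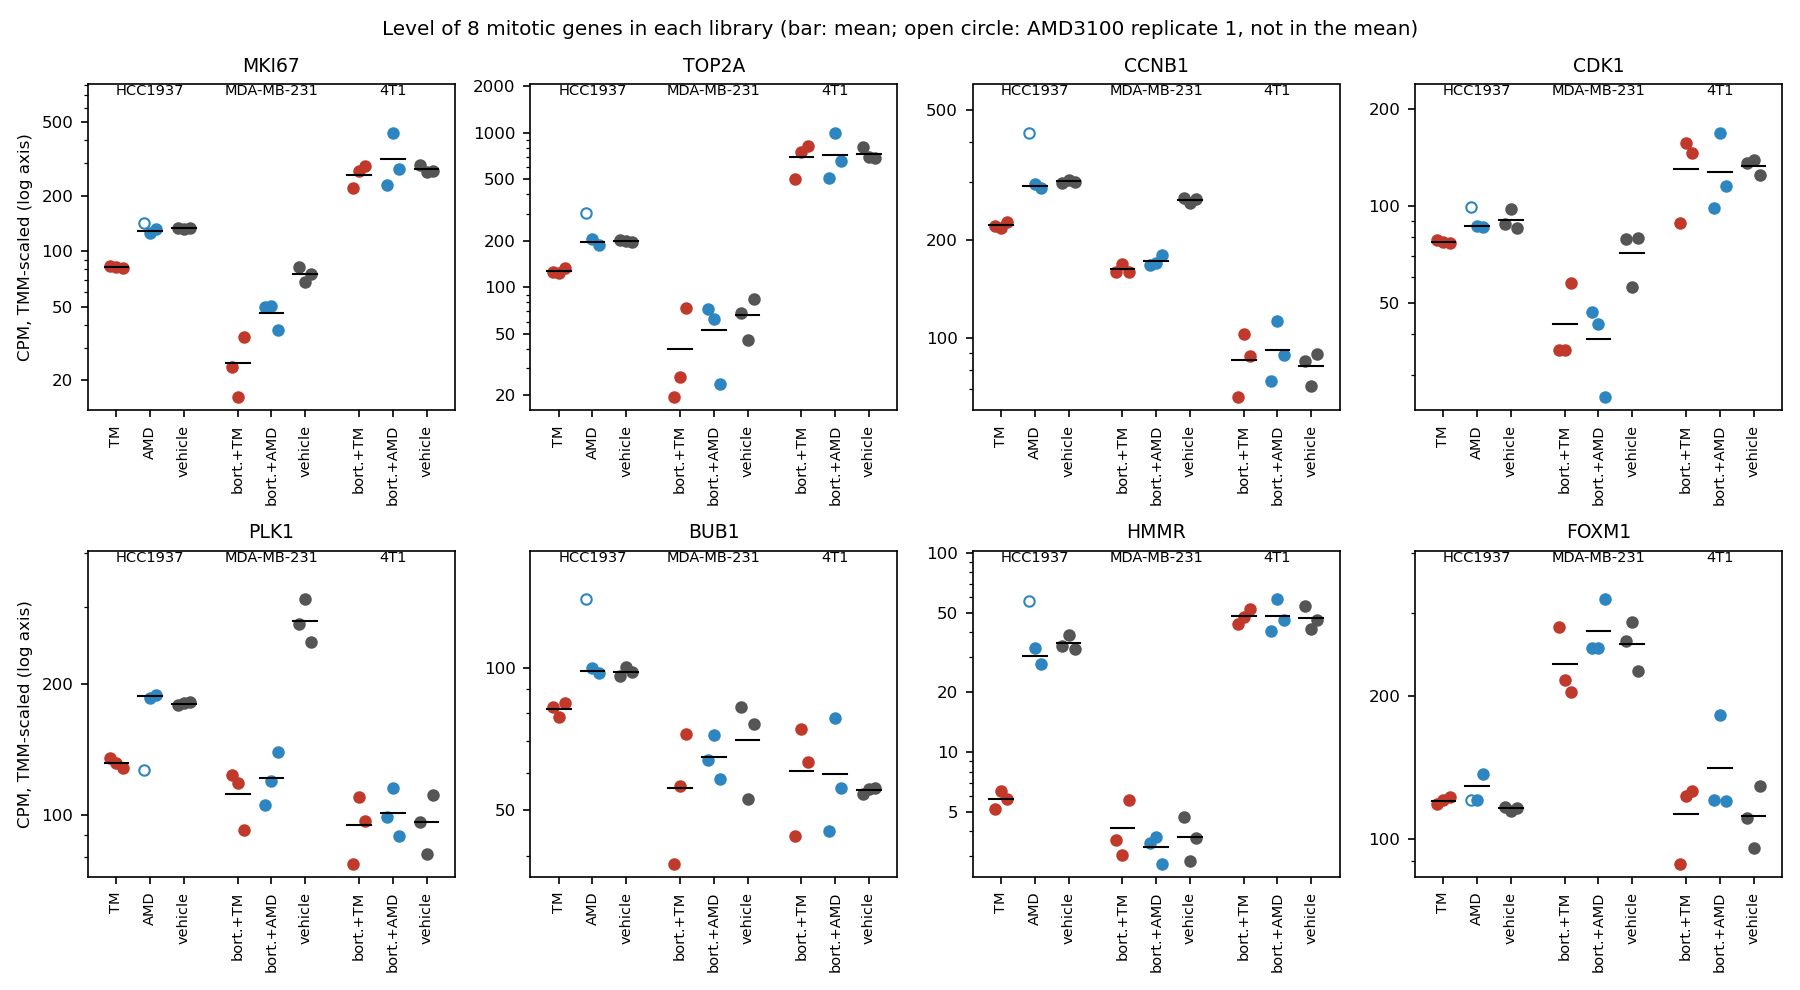
Each point is the CPM of a gene in a library on a log axis, with the groups of the 3 models side by side (bort., bortezomib; AMD, AMD3100) and a bar at the group mean; the open circle is AMD3100 replicate 1 of HCC1937, which is left out of the mean. HMMR drops with TM in HCC1937 and is low in all MDA-MB-231 libraries, MKI67 is lowest with bortezomib+TM in MDA-MB-231, and the 4T1 groups overlap for all 8 genes.

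The promoters of these genes share sequence elements that the list did not use. RefSeq promoters (250 bases before the start to 50 after it, GRCh38.p14) were available for 38 of the 44 genes and for 27305 promoters in all. The letters CCAAT, the box read by NF-Y, were found on either strand in 28 of 38 promoters (73.7%), against 35.7% of all promoters. The letters TTTGAA, one form of the cell cycle homology region (CHR) read by the MuvB core, were found in 26 (68.4%), against 15.4% of all. Another form, TTCGAA, was found in 2 (5.26%), against 1.45%, and no further form was searched. Promoters with CCAAT and either of these CHR forms made up 22 of 38 (57.9%), against 6.58% of all. Among the 29 genes called lower with TM in HCC1937 that had a promoter, CCAAT was found in 23 (79.3%) and TTTGAA in 22 (75.9%), and among the other 9 in 5 (55.6%) and 4 (44.4%). These are matches of letters in 1 promoter per gene, with no test and no measure of binding.

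The promoters of the 3 genes with the deepest called falls and of the 2 genes with the highest log2 change in that comparison are shown, to set the elements of the falling genes beside those of CDC25B and CDC25C. Capitals mark CCAAT or TTTGAA in either orientation (ATTGG and TTCAAA are the reverse complements), and no TTCGAA occurs in the 5. Sequences run 5′ to 3′ along the gene. HMMR lies at chr5:163460382-163460681, plus strand, CDKN3 at chr14:54396757-54397056, plus strand, ASPM at chr1:197146620-197146919, minus strand, CDC25C at chr5:138338306-138338605, minus strand and CDC25B at chr20:3786701-3787000, plus strand.
HMMR: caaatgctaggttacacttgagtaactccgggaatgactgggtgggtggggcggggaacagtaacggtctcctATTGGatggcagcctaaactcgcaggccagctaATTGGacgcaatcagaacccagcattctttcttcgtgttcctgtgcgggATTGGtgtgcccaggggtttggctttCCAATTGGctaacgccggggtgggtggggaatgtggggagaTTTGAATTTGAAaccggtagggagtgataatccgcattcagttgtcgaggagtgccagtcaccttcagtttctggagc
CDKN3: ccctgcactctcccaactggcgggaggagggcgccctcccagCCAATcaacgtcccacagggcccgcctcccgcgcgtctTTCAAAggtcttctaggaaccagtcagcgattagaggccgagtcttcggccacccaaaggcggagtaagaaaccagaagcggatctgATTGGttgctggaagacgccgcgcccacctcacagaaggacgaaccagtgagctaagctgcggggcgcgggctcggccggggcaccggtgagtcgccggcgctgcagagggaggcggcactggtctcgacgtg
ASPM: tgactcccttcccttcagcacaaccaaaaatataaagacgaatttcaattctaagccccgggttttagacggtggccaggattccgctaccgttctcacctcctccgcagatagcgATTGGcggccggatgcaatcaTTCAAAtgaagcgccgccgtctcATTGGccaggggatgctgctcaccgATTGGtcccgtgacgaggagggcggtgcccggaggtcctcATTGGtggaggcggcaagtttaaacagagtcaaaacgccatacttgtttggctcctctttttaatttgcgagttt
CDC25C: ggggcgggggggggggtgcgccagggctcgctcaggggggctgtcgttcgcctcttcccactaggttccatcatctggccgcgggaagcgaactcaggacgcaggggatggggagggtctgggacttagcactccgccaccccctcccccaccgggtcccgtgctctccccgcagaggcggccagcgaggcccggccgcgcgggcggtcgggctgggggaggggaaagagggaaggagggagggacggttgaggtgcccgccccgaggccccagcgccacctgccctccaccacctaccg
CDC25B: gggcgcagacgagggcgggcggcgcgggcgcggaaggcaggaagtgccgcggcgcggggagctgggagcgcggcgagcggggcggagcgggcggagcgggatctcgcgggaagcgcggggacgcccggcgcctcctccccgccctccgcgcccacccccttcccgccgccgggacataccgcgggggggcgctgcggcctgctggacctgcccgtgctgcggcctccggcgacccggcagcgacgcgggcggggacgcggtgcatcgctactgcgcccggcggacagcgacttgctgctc
HMMR carried 5 CCAAT matches, 2 of them overlapping in the palindrome CCAATTGG, and 2 adjacent TTTGAA matches between 28 and 17 bases before the start. ASPM carried 4 CCAAT matches and 1 TTTGAA match, and CDKN3 had 2 and 1. Neither CDC25C nor CDC25B held a match in this window, and CDC25C was not called. The window of CDC25C lies at the outermost end of its annotated span. Promoters at any other start of these genes were not searched, so the lack of a match holds for this window only. The other 2 genes called higher with TM did hold matches, with 2 CCAAT in NEK2 and 3 CCAAT and 1 TTTGAA in CDCA8.

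Other cell cycle genes of HCC1937 were counted in the same fit, where 21.4% of all genes were lower with TM than with vehicle and 19.4% higher. Of 55 further mitotic genes tested, 33 were lower and 6 higher with TM than with vehicle, with a median log2 change of -0.27. KNTC1, a checkpoint protein of the outer kinetochore, had a log2 change of -1.12 ± 0.07, ZWINT, a kinetochore scaffold protein, -0.81 ± 0.054, and DEPDC1 -0.70 ± 0.051. Of 28 genes of DNA replication and the G1/S transition, 16 were lower and 2 higher (median -0.21). RRM2, a subunit of ribonucleotide reductase, had a log2 change of -1.06 ± 0.048, and the helicase subunits MCM7 and MCM5 had -0.66 ± 0.04 and -0.56 ± 0.044. Of 11 subunits of DREAM and MuvB, the complexes that repress and activate these promoters, 3 were lower and 2 higher (median -0.051), near the shares of all genes. RBL2 (p130) and RBBP4 had log2 changes of -0.53 ± 0.12 and -0.20 ± 0.049, and E2F4 had 0.21 ± 0.046. Of 15 APC/C subunits, 4 were lower and 1 higher (median -0.067), with ANAPC5, ANAPC16 and ANAPC4 at -0.47 ± 0.042, -0.52 ± 0.054 and -0.44 ± 0.086.

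With AMD3100, the called changes of mitotic genes in HCC1937 were small. With its 2 remaining libraries, 6 of 44 genes were called higher and 2 lower than with vehicle, where 5.39% of all genes were higher and 2.76% lower. The median log2 change was -0.0088, against 0.0074 over all genes. The 2 AMD3100 libraries lay above all 3 vehicle libraries for 12 genes and below them for 16, against 18.2% and 18.1% of all genes. The genes called higher were KIF2C, MYBL2, CDC25B, CDC20, FOXM1 and UBE2C, with log2 changes between 0.16 and 0.20, and those called lower were KIF23 (-0.23) and ANLN (-0.19). CDC20 had 272 and 292 CPM in AMD3100 replicates 2 and 3 and 176 CPM in AMD3100 replicate 1, against 258, 241 and 251 CPM with vehicle. The other genes followed in every comparison were not called. MKI67, TOP2A, CCNB1, CDK1, PLK1, BUB1 and HMMR had log2 changes of -0.034, -0.013, -0.026, -0.044, 0.075, 0.027 and -0.19. The 36 genes not called had log2 changes from -0.96 (PRC1) to 0.24. PRC1 had 0.833 and 0.930 CPM in AMD3100 replicates 2 and 3 and 4.66 CPM in AMD3100 replicate 1. Its vehicle libraries had 1.44, 2.10 and 1.67 CPM. With AMD3100 replicate 1 in the fit, 0 of 44 genes and 0% of all genes were called. Without AMD3100 replicate 3, or without vehicle replicate 2, the counts were also 0 higher and 0 lower, and after correction for GC content and length they were 2 higher and 1 lower.

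Set against AMD3100, TM libraries were also lower for most of the mitotic genes. Of 44 genes, 29 were lower with TM than with AMD3100 and 1, NEK2, was higher, where 19.7% of all genes were lower and 16.8% higher; the median log2 change was -0.27, against 0.014 over all genes. This comparison shares the TM libraries with the one against vehicle. The 3 cytokinesis genes, all called lower with TM than with vehicle, were not called here, with log2 changes from -0.076 to 0.19. HMMR had 5.21, 6.36 and 5.80 CPM with TM, against 33.2 and 27.6 CPM in AMD3100 replicates 2 and 3 (log2 change -2.42 ± 0.11, adjusted p = 3.46e-16). CDKN3 followed with -1.49, ASPM, CENPE, MKI67 and TOP2A had -0.66, -0.71, -0.67 and -0.64, and PLK1, CCNB1 and BUB1 had -0.53, -0.42 and -0.29. CDK1 had -0.18 ± 0.059, with a call that was lost whenever 1 of the 5 libraries compared was left out, and FOXM1 had -0.12 ± 0.054 and was called, among the settings tried, only without AMD3100 replicate 2. With AMD3100 replicate 1 in the fit, 9 genes were lower and 0 higher, where 4.61% and 3.60% of all genes were called.

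In MDA-MB-231, mitotic genes changed in both directions with bortezomib+TM, as did the genes tested as a whole. Compared with vehicle, 15 of 44 were lower and 5 higher, where 27.6% of all 16498 genes tested were lower and 24.1% higher. The median log2 change was -0.14, against -0.090 over all genes. All 3 bortezomib+TM libraries lay below all vehicle libraries for 13 genes and above them for 5, against 32.1% and 26.3% of all genes. The genes called higher were TTK, MYBL2, CDC25C, MAD2L1 and PTTG1, and the largest falls were those of MKI67, AURKA, PLK1, INCENP, CCNB2 and CDC25B. Bortezomib+TM replicate 3 decided the count, because without it 23 genes were lower and 6 higher and the median was -0.48. Leaving out bortezomib+TM replicate 1 or 2 instead gave 12 genes lower and medians of -0.012 and -0.010. Replicate 3 also held the highest low-GC deviation of its group, and after correction for GC content and length 21 genes were lower and 5 higher, with a median of -0.18.

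A checkpoint kinase and a transcription factor showed the largest rises. TTK had 45.1, 37.2 and 45.6 CPM with bortezomib+TM, against 14.5, 10.5 and 14.1 CPM with vehicle, a fitted ratio of 3.27 (log2 change 1.71 ± 0.19, adjusted p = 1.4e-05). MAD2L1 had 55.2, 56.7 and 55.8 CPM with bortezomib+TM, against 41.1, 28.0 and 39.6 CPM with vehicle (log2 change 0.62 ± 0.15, adjusted p = 0.00402). The other 2 checkpoint genes were not called, and BUB1 had 38.5, 56.2 and 72.5 CPM with bortezomib+TM, against 82.4, 52.8 and 76.1 CPM with vehicle. The groups overlapped for BUB1, because vehicle replicate 2 lay below 2 of the bortezomib+TM libraries (log2 change -0.34 ± 0.22, adjusted p = 0.21), and it was called lower without bortezomib+TM replicate 3. MYBL2 had 1100.4, 978 and 786 CPM with bortezomib+TM, against 425, 488 and 384 CPM with vehicle, with no overlap (log2 change 1.14 ± 0.14, adjusted p = 2.83e-05). FOXM1 had 280.1, 217 and 204 CPM with bortezomib+TM, against 261, 287 and 226 CPM with vehicle, and the groups overlapped (log2 change -0.14 ± 0.14, adjusted p = 0.432).

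Cyclins, CDK1 and the mitotic kinases held 8 of the 15 falls. Among cyclins, CDK1 and its phosphatases, 5 of 7 were lower and 1 higher. CCNB1 had 159, 169 and 160.0 CPM with bortezomib+TM, against 268, 259 and 266 CPM with vehicle, tight in both groups (log2 change -0.70 ± 0.083, adjusted p = 2.66e-05). CDK1 had 35.9, 35.7 and 57.7 CPM with bortezomib+TM, against 78.7, 56.2 and 79.6 CPM with vehicle. Its groups overlapped (log2 change -0.73 ± 0.25, adjusted p = 0.0264). CCNB2, CDC25B and CDKN3 had log2 changes of -0.94 ± 0.13, -0.91 ± 0.13 and -0.86 ± 0.16, all without overlap. CDC25C had 40.2, 42.5 and 41.5 CPM with bortezomib+TM, against 26.4, 19.7 and 20.03 CPM with vehicle (log2 change 0.91 ± 0.13, adjusted p = 0.000154), so the phosphatases of CDK1 moved in opposite directions. PLK1 had 124, 119 and 92.5 CPM with bortezomib+TM, against 275, 313 and 249 CPM with vehicle, less than any vehicle library (log2 change -1.32 ± 0.14, adjusted p = 1.23e-05). AURKA had 50.5, 49.1 and 65.0 CPM with bortezomib+TM, against 147, 134 and 145 CPM with vehicle (log2 change -1.37 ± 0.13, adjusted p = 4.18e-06). NEK2 had a log2 change of -0.75 ± 0.25, adjusted p = 0.0242.

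MKI67 had 23.5, 16.2 and 34.4 CPM with bortezomib+TM, against 82.2, 68.1 and 75.2 CPM with vehicle, the largest fall of the 44 genes (log2 change -1.61 ± 0.23, adjusted p = 0.000117). TOP2A, its neighbour by role, had 19.5, 26.4 and 73.8 CPM with bortezomib+TM, against 67.9, 45.5 and 84.5 CPM with vehicle. Replicate 3 lay with the vehicle libraries and the other 2 far below them (log2 change -0.73 ± 0.48, adjusted p = 0.226), and without replicate 3 TOP2A was called lower at -1.51. INCENP had 72.3, 62.5 and 66.9 CPM with bortezomib+TM, against 143, 151 and 139 CPM with vehicle (log2 change -1.10 ± 0.11, adjusted p = 5.22e-06), while AURKB, BIRC5 and CDCA8 of the same complex were not called. CENPA fell among the centromere genes (-0.86 ± 0.12) and KIF20A among the kinesins (-0.87 ± 0.1). In anaphase control, CDC20 and UBE2C were lower (-0.53 ± 0.098 and -0.56 ± 0.12) and PTTG1 higher (0.28 ± 0.1). TPX2 was the 1 spindle assembly gene called (-0.29 ± 0.093). HMMR was low in every group, at 3.64, 3.06 and 5.75 CPM with bortezomib+TM and 4.72, 2.86 and 3.69 CPM with vehicle, and was not called (log2 change 0.15, 95% interval -0.45 to 0.74). The calls of CDK1, NEK2, PTTG1 and TPX2 were lost when bortezomib+TM replicate 1 or 2, or vehicle replicate 1 or 3, was left out, and that of PTTG1 also without vehicle replicate 2. The 24 genes not called had log2 changes from -0.999 (CENPF) to 0.45 (SPC25).

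Bortezomib+AMD3100 was compared with the same vehicle libraries, which both comparisons share. Of 44 genes, 13 were lower and 4 higher, where 24.2% of all genes were lower and 22.3% higher, and the median log2 change was -0.15, against -0.049 over all genes. That median was -0.023 without bortezomib+AMD3100 replicate 3 and -0.28 without vehicle replicate 2. After correction for GC content and length, 18 genes were lower and 3 higher, with a median of -0.25. MYBL2 had 879, 834 and 1002 CPM with bortezomib+AMD3100, against 425, 488 and 384 CPM with vehicle (log2 change 1.07 ± 0.14, adjusted p = 6.1e-05). TTK (1.04 ± 0.18), CDC25C (0.63 ± 0.13) and MAD2L1 (0.39 ± 0.15) were the other genes called higher, and the call of MAD2L1 was lost when bortezomib+AMD3100 replicate 1 or 2, or vehicle replicate 2 or 3, was left out. The largest falls were those of PLK1 (-1.20 ± 0.14), AURKA (-1.16 ± 0.13), CDKN3 (-1.11 ± 0.16), INCENP (-0.91 ± 0.11), CDK1 (-0.89 ± 0.25) and CENPA (-0.87 ± 0.12). CCNB1 had 167, 170.1 and 180.2 CPM with bortezomib+AMD3100 (log2 change -0.62 ± 0.083, adjusted p = 8.96e-05). MKI67 had 50.1, 50.5 and 37.4 CPM with bortezomib+AMD3100, below the vehicle libraries (log2 change -0.71 ± 0.22, adjusted p = 0.0218), and its call was lost without bortezomib+AMD3100 replicate 3, vehicle replicate 1 or vehicle replicate 3. TOP2A, BUB1, HMMR and FOXM1 were not called (-0.32, -0.13, -0.17 and 0.091).

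Between bortezomib+TM and bortezomib+AMD3100, which differ in the partner of bortezomib, no gene passed the threshold. edgeR called 0 of 44 genes and 0% of 16498 genes, with 3 of 44 and 1464 of all genes at an unadjusted p below 0.05; limma-voom called 0 genes, and DESeq2 called 52 genes, 2 of them among the 44. Libraries did not overlap for 6 genes higher and 1 lower, against 6.56% and 6.84% of all genes. MKI67 was the 1 gene lower in all 3 bortezomib+TM libraries, with 23.5, 16.2 and 34.4 CPM, against 50.1, 50.5 and 37.4 CPM with bortezomib+AMD3100 (log2 change -0.90 ± 0.23, adjusted p = 0.357, 95% interval -1.39 to -0.40). DESeq2 called it lower (log2 change -0.86), as did edgeR without bortezomib+TM replicate 3 (-1.19). TTK had 45.1, 37.2 and 45.6 CPM with bortezomib+TM, against 33.2, 25.1 and 22.1 CPM with bortezomib+AMD3100 (log2 change 0.67 ± 0.18, adjusted p = 0.372, 95% interval 0.28 to 1.07). The 95% intervals of the log2 difference were -0.27 to 0.10 for CCNB1, -0.43 to 0.18 for PLK1 and -0.55 to 0.08 for FOXM1. They were wider for TOP2A (-1.45 to 0.64), CDK1 (-0.38 to 0.70), BUB1 (-0.68 to 0.26) and HMMR (-0.28 to 0.92).

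The other lists of MDA-MB-231 were counted in the same way. Of all genes tested, 24.1% were higher with bortezomib+TM than with vehicle and 27.6% lower. With bortezomib+TM, 12 of 28 genes of DNA replication and the G1/S transition were higher and 3 lower than with vehicle (median log2 change 0.17). RRM2 had a log2 change of 1.46 ± 0.082, MCM7 1.29 ± 0.11 and CDT1, a licensing factor, 1.61 ± 0.14. Of 56 further mitotic genes tested, 12 were higher and 15 lower (median 0.030), near the shares of all genes. They were led by CDC25A (2.24 ± 0.091), CDCA5 (1.32 ± 0.091) and NCAPH (-1.08 ± 0.11). Of 11 DREAM and MuvB subunits, 4 were higher and 4 lower (median 0.28), with RBL2 at -2.90 ± 0.21, TFDP1 at -1.17 ± 0.089 and TFDP2 at 1.53 ± 0.15. Of 15 APC/C subunits, 4 were higher and 5 lower (median -0.098), also near these shares. ANAPC1, CDC23 and ANAPC7 were at -1.58 ± 0.21, 1.18 ± 0.17 and -0.77 ± 0.11.

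The change in the TM arm was then compared between the lines in a joined fit, as the MDA-MB-231 change (bortezomib+TM against vehicle) minus the HCC1937 change (TM against vehicle). The fit does not separate the line from bortezomib, which only MDA-MB-231 received. Of 44 genes, 10 changed upward in MDA-MB-231 relative to HCC1937 and 8 downward, where 16.4% and 16.2% of 22621 genes did so, and the median difference was 0.16, against -0.10 over all genes. Without bortezomib+TM replicate 3 of MDA-MB-231 the counts were 12 and 11 and the median difference was -0.14. After correction for GC content and length they were 11 and 12, with a median difference of 0.0097. With AMD3100 replicate 1 of HCC1937 in the fit they were 6 and 8, where 11.2% and 10.4% of all genes were called.

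HMMR differed most. It fell in HCC1937 and was not called in MDA-MB-231, where its level was low in every group, and the log2 difference was 2.80 (95% interval 2.18 to 3.41, adjusted p = 4.42e-07). TTK (log2 difference 1.89 ± 0.2), MYBL2 (1.39 ± 0.17) and MAD2L1 (0.88 ± 0.17) were called higher in MDA-MB-231 and were lower or not called in HCC1937. ASPM (1.23 ± 0.38) and NUF2 (0.75 ± 0.23) fell in HCC1937 and were not called in MDA-MB-231. In the opposite direction, AURKA (-1.12 ± 0.14), PLK1 (-0.81 ± 0.17), MKI67 (-0.86 ± 0.23) and INCENP (-0.76 ± 0.13) fell in both lines and by more in MDA-MB-231. CDC25B (-1.12 ± 0.17) and NEK2 (-0.82 ± 0.24) were called higher in HCC1937 and lower in MDA-MB-231. For CCNB1, CDK1, TOP2A, BUB1 and FOXM1 the difference did not pass the test, with 95% intervals of -0.42 to 0.018, -1.01 to 0.077, -1.11 to 1.01, -0.52 to 0.45 and -0.52 to 0.24. Among the other lists, 16 of 28 genes of DNA replication and the G1/S transition were called higher in this difference and 2 lower. Of all genes, 16.4% were called higher in it and 16.2% lower. The further mitotic genes had 18 of 56 higher and 7 lower, the DREAM and MuvB subunits 2 of 11 higher and 4 lower, and the APC/C subunits 5 of 15 higher and 4 lower.

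**Figure D4:**
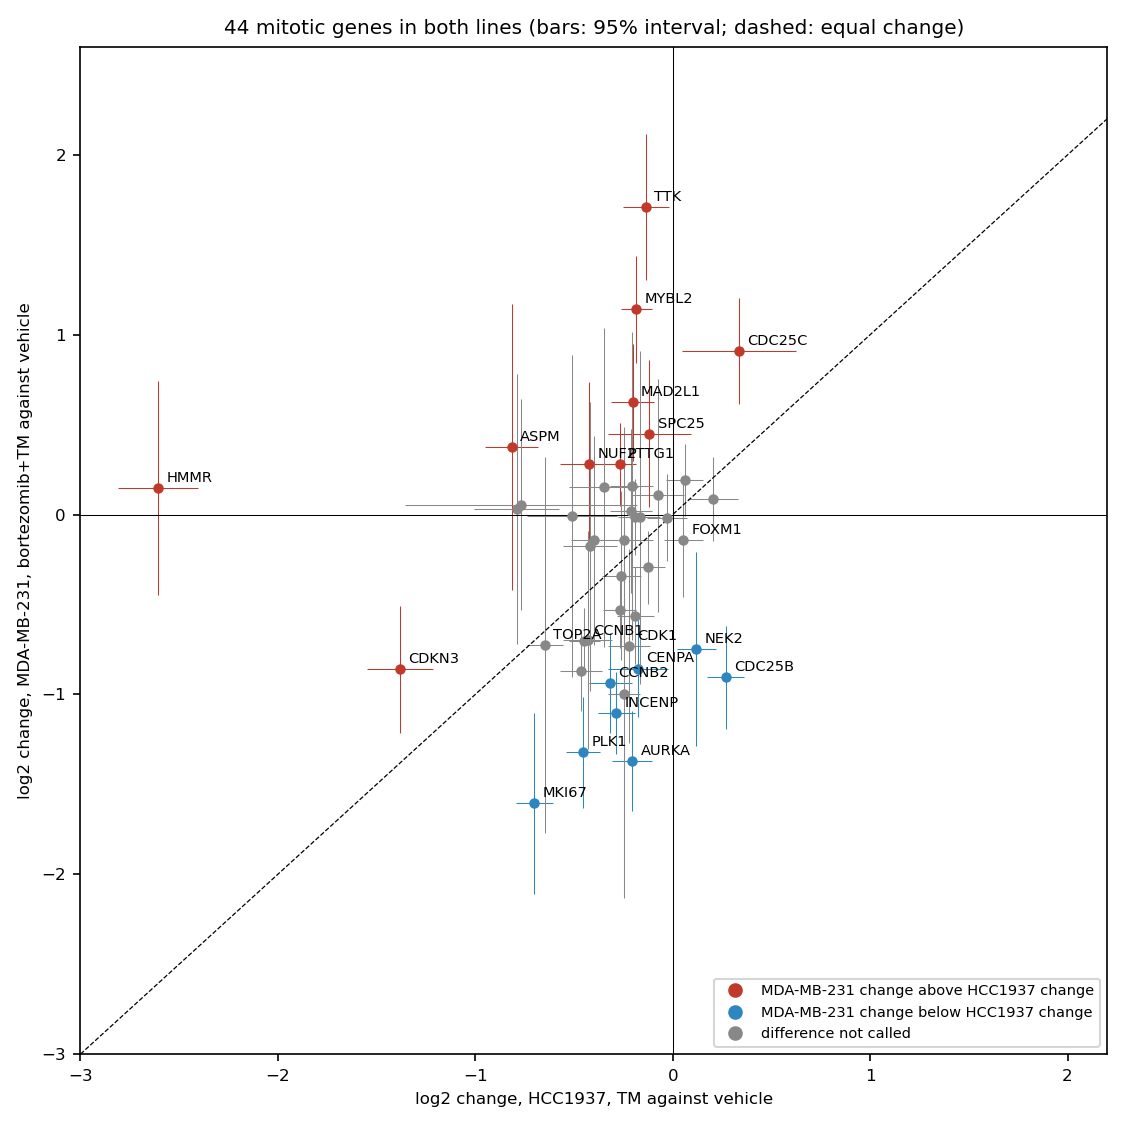
Each point is a gene, with its log2 change with TM in HCC1937 on the x axis and with bortezomib+TM in MDA-MB-231 on the y axis, both against vehicle; bars are 95% intervals, the dashed line marks equal change, and red and blue mark genes whose change is higher or lower in MDA-MB-231. Red points lie above the line with HMMR at the far left, blue points lie below it with MKI67, AURKA and PLK1 lowest, and bars are longer in MDA-MB-231, where the median SE is 0.19, against 0.052 in HCC1937.

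Levels differed widely between genes, and they are given within each line because the tables were scaled separately. Levels were divided by the gene length given with the counts, which need not be the length of the transcript expressed. Per kilobase of that length, the highest vehicle level in MDA-MB-231 was that of CDC20 (186 CPM per kb), followed by MYBL2 (156). In HCC1937, CCNB1 (124) and CDC20 (124) led with vehicle and MYBL2 (119) was next. With bortezomib+TM, MYBL2 rose to 344 CPM per kb in MDA-MB-231, far above CDC20 (129). At the low end, apart from PRC1, stood CDC25C (1.91) and CENPE (2.15) with vehicle in HCC1937 and ASPM (0.890) and HMMR (0.955) with vehicle in MDA-MB-231. The median SD of log2 CPM over the 44 genes was 0.060 with TM and 0.053 with vehicle in HCC1937, and 0.24 with both bortezomib+TM and vehicle in MDA-MB-231.

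In 4T1 tumours no mitotic gene passed the threshold in any comparison. edgeR called 0 of 44 genes and 0% of 15846 genes with bortezomib+TM against vehicle, bortezomib+AMD3100 against vehicle and bortezomib+TM against bortezomib+AMD3100. At an unadjusted p below 0.05 there were 688, 1144 and 454 genes, 0 of them among the 44; DESeq2 called 3, 17 and 6 genes, 0 among the 44, and limma-voom called 0. Without vehicle replicate 1, the counts against vehicle were also 0. In counts simulated for bortezomib+TM against vehicle, log2 changes of size 1 were called for only 39% of such genes, so changes of that size could be missed. The medians of the 44 genes were 0.027, 0.071 and -0.061. With 1 library left out they ran from -0.093 to 0.20, from -0.087 to 0.19 and from -0.16 to 0.15, so each changed sign. Most genes shifted the same way in some libraries. Relative to the vehicle mean, the median gene was at -0.32, 0.25 and 0.12 on the log2 scale in bortezomib+TM replicates 1 to 3. It was at -0.23, 0.35 and 0.016 with bortezomib+AMD3100, and at 0.048, -0.11 and 0.078 with vehicle. In bortezomib+TM replicate 1, 43 of 44 genes were below the vehicle mean, and in bortezomib+AMD3100 replicate 2, 43 of 44 were above it.

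Single genes of 4T1 showed the same overlap. Mki67 had 221, 272 and 289 CPM with bortezomib+TM and 229.9, 439.7 and 281 CPM with bortezomib+AMD3100, against 293, 268 and 273 CPM with vehicle (95% intervals of the log2 changes -0.58 to 0.39 and -0.30 to 0.68). Hmmr had 44.2, 47.7 and 52.1 CPM with bortezomib+TM and 40.6, 58.6 and 46.0 CPM with bortezomib+AMD3100, against 54.2, 41.6 and 46.0 CPM with vehicle (95% intervals -0.34 to 0.38 and -0.32 to 0.39). Neither gene separated the groups. For Top2a, Ccnb1, Cdk1, Plk1, Bub1 and Foxm1 the log2 changes with bortezomib+TM were -0.079, 0.064, -0.03, -0.024, 0.14 and 0.0089, with 95% intervals of -0.65 to 0.50, -0.38 to 0.51, -0.57 to 0.51, -0.40 to 0.35, -0.37 to 0.64 and -0.45 to 0.47. Over all 44 genes the log2 changes ran from -0.18 to 0.30 with bortezomib+TM and from -0.091 to 0.33 with bortezomib+AMD3100, both against vehicle. Between the treated arms they ran from -0.32 (Foxm1) to 0.24 (Ube2c), and Kif20a was the 1 gene lower in every bortezomib+TM library. Groups did not overlap for 0 genes with bortezomib+TM, where 4.95% of all genes were higher and 5.01% lower, for 0 with bortezomib+AMD3100, where these were 6.01% and 7.34%, and for that 1 gene between the arms, where they were 3.69% and 3.68%.

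Cell type markers also varied between the 4T1 libraries. Epithelial markers (Epcam, Cdh1, Krt8, Krt18, Krt19), which the carcinoma cells themselves can express, summed to 1064 to 1915 CPM with bortezomib+TM. They summed to 969.5 to 1247 CPM with bortezomib+AMD3100 and 1461 to 2392 CPM with vehicle. Every bortezomib+AMD3100 library thus lay below every vehicle library in this sum, while bortezomib+TM and vehicle overlapped. T cell markers (Cd3d, Cd3e, Cd4, Cd8a) summed to 36.5 to 219 CPM with bortezomib+TM, 39.8 to 345 CPM with bortezomib+AMD3100 and 13.5 to 76.7 CPM with vehicle. Neutrophil markers (S100a8, S100a9, Cxcr2, Ly6g) summed to 35.9 to 45.8 CPM with bortezomib+TM, 16.1 to 45.7 CPM with bortezomib+AMD3100 and 50.7 to 82.7 CPM with vehicle. The sums of both treated groups lay below vehicle, and S100a8 and S100a9 made up most of them. Cxcr2 averaged 4.55, 3.76 and 4.02 CPM and Ly6g 0.158, 0.223 and 0.374 CPM with bortezomib+TM, bortezomib+AMD3100 and vehicle. Macrophage markers (Adgre1, Csf1r, C1qa, Cd68) summed to 571 to 891 CPM with bortezomib+TM, 701 to 889.8 CPM with bortezomib+AMD3100 and 809 to 1112 CPM with vehicle. Fibroblast markers (Col1a1, Col1a2, Pdgfra, Dcn) summed to 1466 to 4456 CPM, 2922 to 3325 CPM and 1846 to 3186 CPM with bortezomib+TM, bortezomib+AMD3100 and vehicle, and endothelial markers (Pecam1, Cdh5, Kdr, Tek) to 113 to 298 CPM, 132 to 276 CPM and 173 to 245 CPM. None of the markers named here averaged 0 in any 4T1 group. The part of these cells in the levels of the mitotic genes was not tested.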

How the data were processed

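RNA-seq counts per gene were deposited by the authors as 1 table per model. The submitters' processing notes name featureCounts 2.0.1, MultiQC 1.11 and the builds GRCh38 and GRCm38. The aligner, annotation version and strand setting are not given in the sources used here; 15 of the 44 genes overlap exons of another gene.

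Raw counts were tested in R 4.3.3 with edgeR 4.0.16 (filterByExpr, TMM, quasi-likelihood test, 1 coefficient per group, Benjamini-Hochberg adjustment over all genes tested, called at adjusted p below 0.05) and checked on simulated data. Printed levels are CPM with TMM factors over the 9 libraries of a table. HCC1937 fits left out AMD3100 replicate 1. Both human tables were joined to test the difference between the lines. Alternatives were median-of-ratios scaling, no filter, a replicate block, the compared groups alone, DESeq2 1.42.0, limma-voom 3.58.1, the left-out library put back and each library left out. A correction with 20 GC bins and 5 length bins was added after seeing the data.

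Members and other lists were chosen with earlier results of these data known. Genes named in every comparison are MKI67, TOP2A, CCNB1, CDK1, PLK1, BUB1, HMMR and FOXM1, joined by the 6 largest called rises and 6 largest called falls of each comparison, and up to 3 called genes of each other list with the smallest p in the TM-arm comparisons; others are named to complete their role.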

Additional observations from a re-analysis of the deposited data

Results flagged for a closer look

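The change in the TM arm differed between MDA-MB-231 (bortezomib+TM against vehicle) and HCC1937 (TM against vehicle) for 18 of 44 mitotic genes, by the interaction term of edgeR's fit on both lines with adjusted p below 0.05. Line and bortezomib cannot be told apart in it. The log2 difference, MDA-MB-231 minus HCC1937, was positive for 10 genes. It was 2.80 for HMMR, 1.89 for TTK, 1.39 for MYBL2, 1.23 for ASPM and 0.88 for MAD2L1. It was 0.75 for NUF2, 0.62 for CDC25C, 0.62 for SPC25, 0.60 for PTTG1 and 0.57 for CDKN3. The difference was negative for 8 genes. It was -1.12 for AURKA, -1.12 for CDC25B, -0.86 for MKI67 and -0.82 for NEK2. It was -0.81 for PLK1, -0.76 for INCENP, -0.63 for CENPA and -0.57 for CCNB2.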

How the results depend on the processing

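With TM against vehicle in HCC1937, 31 to 34 genes were lower and 1 to 4 higher with 1 library left out, 33 were lower under another scaling, DESeq2, limma-voom and the 2 groups fitted alone, 32 without the low-count filter, and 28 (4 higher) after the GC content and length correction. With AMD3100 replicate 1 in the fit the counts were 8 lower and 0 higher. Replicate numbers did not pair the libraries (same-number correlations of deviations ran from -0.21 to 0.19 in HCC1937, -0.83 to 0.75 in MDA-MB-231 and -0.61 to 0.71 in 4T1). With the replicate block, 33 genes were lower and 2 higher with TM in HCC1937, 15 lower and 4 higher with bortezomib+TM in MDA-MB-231, and the difference between the lines held 8 and 8.

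AMD3100 against vehicle in HCC1937 gave 3 genes higher without the low-count filter, 3 higher and 0 lower with the block, 0 and 0 with AMD3100 replicate 1 (median 0.058), 2 higher and 1 lower after the GC content and length correction (median 0.062), and 0 to 4 in each direction with 1 library left out. TM against AMD3100 gave 0 higher and 9 lower with that replicate (median -0.32), 2 higher after the correction, and 0 to 1 higher with medians of -0.29 to -0.22 with 1 library left out. Bortezomib+TM against vehicle in MDA-MB-231 ran from 12 to 23 lower and 4 to 6 higher. Bortezomib+TM against bortezomib+AMD3100 gave 1 higher and 2 lower without the filter, 1 and 1 with DESeq2, and 0 to 2 lower with 1 library left out. The difference between the lines gave 6 higher with AMD3100 replicate 1.

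Signs turned in 81 gene values under an alternative. With AMD3100 replicate 1 and after the correction, AMD3100 against vehicle gave 0.0020 and 0.0015 for MKI67, 0.21 and 0.13 for TOP2A, 0.16 and 0.012 for CCNB1, 0.00591 and 0.15 for CDK1, and -0.11 and -0.036 for PLK1. With the replicate alone it gave -0.017 for CDC20, -0.045 for UBE2C, 0.089 for KIF23, 0.17 for HMMR and 0.031 for ANLN. After the correction NDC80 was at 0.023 with TM in HCC1937 and HMMR at -0.13 with bortezomib+TM in MDA-MB-231. In 4T1, Foxm1 with bortezomib+TM was at -0.000785 without the filter and -0.012 with the block, and Hmmr between the treated arms at 0.00580 with limma-voom. The range with 1 library left out is given for each log2 change that turned sign. For HCC1937 TM against vehicle, it ran from -0.076 to 0.017 for AURKB. For HCC1937 AMD3100 against vehicle, it ran from -0.071 to 0.00042 for MKI67, -0.076 to 0.045 for TOP2A and -0.0050 to 0.041 for BUB1. For MDA-MB-231 bortezomib+TM against vehicle, it ran from -0.14 to 0.34 for HMMR. For MDA-MB-231 bortezomib+AMD3100 against vehicle, it ran from -0.60 to 0.036 for TOP2A, -0.29 to 0.0025 for BUB1, -0.33 to 0.028 for HMMR and -0.025 to 0.18 for FOXM1. For MDA-MB-231 bortezomib+TM against bortezomib+AMD3100, it ran from -0.090 to 0.33 for CDK1 and -0.21 to 0.015 for PLK1. For 4T1 bortezomib+TM against vehicle, it ran from -0.17 to 0.018 for Mki67, -0.22 to 0.11 for Top2a, -0.091 to 0.23 for Ccnb1, -0.19 to 0.19 for Cdk1, -0.15 to 0.11 for Plk1, -0.036 to 0.33 for Bub1, -0.063 to 0.13 for Hmmr and -0.092 to 0.16 for Foxm1. For 4T1 bortezomib+AMD3100 against vehicle, it ran from -0.13 to 0.37 for Mki67, -0.34 to 0.18 for Top2a, -0.020 to 0.30 for Ccnb1, -0.33 to 0.092 for Cdk1, -0.044 to 0.19 for Plk1, -0.14 to 0.28 for Bub1 and -0.14 to 0.15 for Hmmr. For 4T1 bortezomib+TM against bortezomib+AMD3100, it ran from -0.47 to 0.042 for Mki67, -0.26 to 0.26 for Top2a, -0.26 to 0.089 for Ccnb1, -0.12 to 0.30 for Cdk1, -0.22 to 0.049 for Plk1, -0.15 to 0.28 for Bub1 and -0.12 to 0.16 for Hmmr. In the difference between the lines, it ran from -0.81 to 0.28 for TOP2A and -0.24 to 0.17 for BUB1. The cause was not tested.

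Depth was similar in all libraries. Groups of 3 libraries, drift with GC content in MDA-MB-231 and variation between libraries in 4T1 limit the precision, and no group received bortezomib alone.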
